A study of Mus musculus with 24 samples.

Results

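The genes described here are 10 genes of calcium-binding, galactoside-binding and cytoskeletal proteins, namely S100a4, S100a6, S100a10, S100a11, Lgals1, Lgals3, Vim, Ahnak, Crip1 and Anxa2, among the 24447 genes of a single-cell count matrix. They were taken by symbol, and all 10 were in the matrix. The set was selected on earlier results of these data, in part for the high level of Lgals3 in Jα18-deficient cells, so that value is a description here and not a finding. Single NK1.1+CD3e+ cells were sorted by flow cytometry from perfused livers of young adult mice, hand-picked, and sequenced by a method that counts captured transcripts through unique molecular identifiers (UMIs). The genotypes were WT, Jα18-deficient and CD1d-deficient. The Jα18 segment is part of the receptor of type I natural killer T (NKT) cells, which the first mutant therefore lacks. CD1d is the lipid-presenting molecule on which NKT cells of both types depend. Both deletions are carried by every cell of the animal from birth. A limit of these models is that a Jα18 deletion can affect the use of neighbouring Jα segments, and that CD1d2, a second gene of the CD1d family, differs between CD1d-deficient lines. The authors state that the original Jα18-deficient line lacks several Jα segments, and that their CD1d-deficient mice still carry CD1d2. WT mice were purchased and the mutant lines came from another laboratory, so genotype, breeding and line cannot be told apart, and the methods give neither sex nor number of mice. The labels list 24 libraries, 8 per genotype. Cells in the matrix are named only by genotype and a running number, so each genotype was 1 pool without replicates, and barcodes shared between libraries could not be counted.

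S100 proteins are small proteins that bind calcium and then bind partner proteins, often at the membrane or the cytoskeleton. Galectins are lectins that bind galactosides on glycoproteins, inside and outside the cell. Vimentin is the intermediate filament protein of leukocytes and mesenchymal cells, and annexin A2 is a calcium-dependent membrane-binding protein that forms a complex with S100a10. In T cells, S100a4, S100a6, Lgals1, Lgals3, Vim, Ahnak, Crip1 and Anxa2 are known as genes of effector and memory cells and are low in naive cells.

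Positions are those of mm9. Of the 10 genes, 4 lie on chromosome 3, where S100a4 (90407692 to 90409967), S100a6 (90416816 to 90418336), S100a11 (93324410 to 93330209) and S100a10 (93359002 to 93368565) lie in the same region, S100a4 near S100a6 and S100a11 near S100a10. Lgals1 lies on chromosome 15 (78757155 to 78760895), Lgals3 on chromosome 14 (47987426 to 48005835), Vim on chromosome 2 (13495554 to 13504453), Ahnak on chromosome 19 (9063750 to 9151409), Crip1 on chromosome 12 (114390223 to 114392088) and Anxa2 on chromosome 9 (69301427 to 69339602). Anxa2 overlaps an antisense gene, Gm16144, and CT009708.1, and the strand setting of the counting was not given in the sources used here, so its counts are uncertain to that extent. The other members have no overlap that could be assigned here apart from their own transcripts.

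The promoters of S100a4 and S100a6 are shown because these members were called between classes of thinned cells below, and that of Lgals3 because its level helped to choose the set. The letters are the RefSeq promoters of GRCm38.p6, the bases just before the annotated start, placed on mm9 by an exact and single match on the + strand. Capitals mark matches, on either strand, to TATAAA as the TATA box, to CCAAT as the box of that name, to GGGCGG as the Sp1 motif, to TGANTCA as the AP-1 motif, to TGTGGT as the Runx motif, to GGTGTGA as the T-box motif and to CACCC as the Klf motif. The windows of S100a4 (chr3:90407442-90407691) and S100a6 (chr3:90416566-90416815) have 250 bases. That of Lgals3 (chr14:47993285-47993487) was ended after 203 bases, at the first annotated exon base, and lies in an intron of a longer Lgals3 transcript.
S100a4: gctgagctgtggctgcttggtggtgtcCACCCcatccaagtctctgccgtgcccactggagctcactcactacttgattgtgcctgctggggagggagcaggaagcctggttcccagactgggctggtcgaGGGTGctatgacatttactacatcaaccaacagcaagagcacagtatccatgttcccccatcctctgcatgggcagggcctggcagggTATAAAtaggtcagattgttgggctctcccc
S100a6: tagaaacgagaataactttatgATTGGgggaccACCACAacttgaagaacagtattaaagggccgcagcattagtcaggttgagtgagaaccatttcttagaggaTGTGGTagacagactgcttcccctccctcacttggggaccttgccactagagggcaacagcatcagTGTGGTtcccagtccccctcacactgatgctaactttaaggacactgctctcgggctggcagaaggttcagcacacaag
Lgals3: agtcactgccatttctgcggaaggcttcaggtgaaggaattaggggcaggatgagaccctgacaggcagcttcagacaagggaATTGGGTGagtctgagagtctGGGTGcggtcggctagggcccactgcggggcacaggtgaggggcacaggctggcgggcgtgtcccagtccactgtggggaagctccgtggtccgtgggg
Promoters were found for 8 of the 10 genes, that is for all but S100a10 and Lgals1. In the 250 bases before the start, a TATAAA was found in 3 of these 8 promoters (S100a4, Vim and Anxa2) and in 12.4% of all 32851 promoters of that table. TGTGGT was found in 1 of the 8, S100a6, which held 3 matches, and in 14.05% of all promoters. TGANTCA was found in S100a11 and Anxa2, against 6.75% of all promoters, and GGGCGG in 5 of the 8, against 32.7%. CCAAT was found in S100a6, Lgals3 and Vim, against 33.8% of all, and CACCC in 6 of the 8, against 52.0%. No member held GGTGTGA, which 3.33% of all promoters held. In Lgals3 one Klf match shares letters with the match to the CCAAT box. These matches describe letters and are no evidence of binding.

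The sums of UMIs were 34102694 over 623 WT cells, 60484252 over 725 Jα18-deficient cells and 14536585 over the 387 CD1d-deficient cells. The CD1d-deficient pool was shallower, with a median of 13508 UMIs per cell against 40467 in WT and 46670 in Jα18-deficient cells. Cd1d1, the deleted gene, had 854 WT UMIs, 934 Jα18-deficient UMIs and 0 UMIs in the CD1d-deficient pool, which allows up to 0.206 counts per 1000000 UMIs (CPM). The matrix has no T cell receptor genes, so the Jα18 deletion was not examined. Of 8 T and NK identity markers (Cd3e, Klrb1c, Il2rb and others), 8 were detected in each pool, with a summed level of 9399 to 11862 CPM. Of 12 myeloid markers, 12 were detected in the WT and CD1d-deficient pools and 11 in the Jα18-deficient pool, where Cd14 was at 0. Their sum was 105 CPM in WT, 41.3 CPM in Jα18-deficient and 682 CPM in CD1d-deficient cells, so the CD1d-deficient pool stood apart. Of 8 neutrophil markers, 2 or 3 were detected per pool, Csf3r and Mmp9 in each, and S100a9, Retnlg, Ly6g, Camp and Ngp were at 0 in all 3. The neutrophil list summed to 190 CPM in WT, 103 CPM in Jα18-deficient and 37.4 CPM in CD1d-deficient cells. The 8 hepatocyte markers summed to at most 42.4 CPM, the 8 stromal and endothelial markers to at most 18.3 CPM, and the 6 B cell markers to at most 14.4 CPM. The 8 cell cycle genes summed to 35.9 CPM in CD1d-deficient, 95.3 CPM in Jα18-deficient and 129 CPM in WT cells.

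S100a4, S100a6, Lgals3, Vim, Ahnak, Crip1 and Anxa2 were each at least 2-fold above WT in the Jα18-deficient pool, and 6 of these, all but Lgals3, were also at least 2-fold higher in the CD1d-deficient pool. S100a10 and S100a11 were lower in both mutant pools, and Lgals1 was 1.47- and 1.27-fold higher. With 1 pool per genotype no test between genotypes was possible. Intervals are exact 95% Poisson intervals of the summed counts and, like all intervals here, cover counting error only. Both mutant pools were set against the same WT pool.

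Among the S100 genes, S100a6, which binds calcium and interacts with annexins, was at 407 CPM in WT (400 to 414), 1166 CPM in Jα18-deficient (1157 to 1175) and 1804 CPM in CD1d-deficient cells (1783 to 1826). It was thus 2.87- and 4.44-fold the WT level. S100a4, a partner of non-muscle myosin, was at 164 CPM in WT (160 to 168), 516 CPM in Jα18-deficient (511 to 522) and 376 CPM in CD1d-deficient cells (366 to 386). Its order was therefore not that of S100a6, with the Jα18-deficient pool highest. S100a10, the annexin A2 partner, was at 1454 CPM in WT, 1115 CPM in Jα18-deficient and 1057 CPM in CD1d-deficient cells. S100a11, which binds annexin A1, was at 764, 624 and 711 CPM in the same order. The S100 genes of the set therefore fell on both sides of the WT level.

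Of the galectins, Lgals3 encodes galectin-3 and was at 42.0 CPM in WT (39.8 to 44.2), 278 CPM in Jα18-deficient (274 to 282) and 42.2 CPM in CD1d-deficient cells (39.0 to 45.7). The WT and CD1d-deficient intervals overlapped, and the Jα18-deficient level, on which the set was chosen, was 6.62 times the WT level. Lgals1, encoding galectin-1, was at 876 CPM in WT, 1289 CPM in Jα18-deficient and 1112 CPM in CD1d-deficient cells. Lgals3 was therefore the one member that was high in a single mutant pool.

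Among the cytoskeletal and membrane genes, Anxa2 was at 125 CPM in WT (121 to 128), 434 CPM in Jα18-deficient (429 to 440) and 600 CPM in CD1d-deficient cells (587 to 613). Vim was at 45.7 CPM (43.4 to 48.0), 110 CPM (107 to 113) and 186 CPM (179 to 194) in the same order. Ahnak, encoding a very large scaffold protein of the membrane, was at 157, 434 and 494 CPM, and Crip1, encoding a small LIM-domain protein, at 1035, 2185 and 2599 CPM. All 4 genes had the same order, with WT lowest and CD1d-deficient cells highest.

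**Figure D1:**
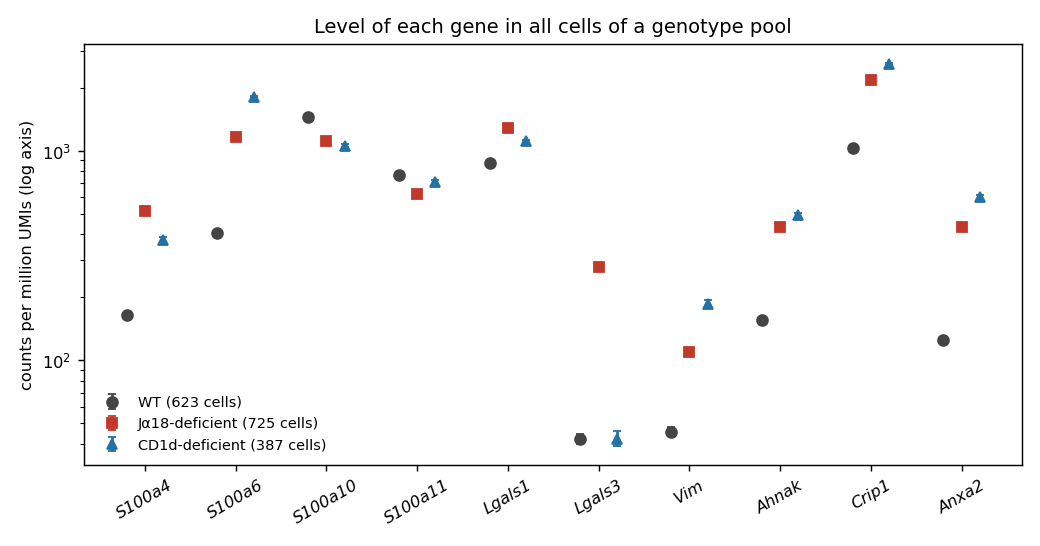
Level of each gene over all cells of a genotype pool, in counts per 1000000 UMIs (CPM) on a log axis, with exact 95% Poisson intervals (counting error only, mostly smaller than the symbols). Lgals3 was at 278 CPM in the Jα18-deficient pool and at 42.0 and 42.2 CPM in the other pools, while S100a10 and S100a11 were highest in WT.

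These counts were set beside those of all genes with at least 100 UMIs in a pair of pools. Of 10267 such genes, 14% were at least 2-fold above WT in the Jα18-deficient pool, as were 7 of the 10 members. Of 9447 genes, 12.2% were at least 2-fold above WT in the CD1d-deficient pool, as were 6 of the 10. The choice of the members used the first of these contrasts in part, so nothing is read from its count. Between the mutant pools, 9.58% of 10042 genes were at least 2-fold higher in CD1d-deficient cells, with 0 of the 10 members among them, and 17.8% were at least 2-fold lower, with 1 member, Lgals3, at 0.15 times the Jα18-deficient level. The median log2 ratio of the members was 1.37 for Jα18-deficient against WT and 1.26 for CD1d-deficient against WT, where the median of all genes was 0.13 and 0.0052. The members were chosen with earlier results of these data known, and both contrasts share the WT pool. These medians and the second count are therefore a description only.

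The shares of cells with a UMI were compared after each cell of at least 10000 UMIs was thinned to 10000, which kept 523 WT, 632 Jα18-deficient and 227 CD1d-deficient cells and left out 353 cells. For S100a6 the share was 51.6% in WT (47.2 to 56.0, exact Clopper-Pearson interval), 85.8% in the Jα18-deficient pool (82.8 to 88.4) and 94.7% in the CD1d-deficient one (90.9 to 97.2). Without thinning the shares were 71.7%, 97.4% and 92.8%. S100a4 was detected in 26.0%, 52.1% and 70.5% of thinned cells (43.5%, 76.7% and 73.1% unthinned), so that its share was highest in CD1d-deficient cells although its level was highest in Jα18-deficient cells. The upper end of the cells followed the level, with a 90th percentile of 14.3 S100a4 UMIs per 10000 in Jα18-deficient cells, against 9.14 in CD1d-deficient and 4.40 in WT cells.

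Lgals3 was detected in 12.4% of WT (9.72 to 15.6), 45.1% of the Jα18-deficient (41.2 to 49.1) and 28.2% of the CD1d-deficient thinned cells (22.4 to 34.5), and in 26.5%, 73.1% and 43.9% unthinned. The cells with a Lgals3 UMI held on average 3.17 UMIs of it in WT, 7.0 in the Jα18-deficient and 2.06 in the CD1d-deficient pool. Its mean over all thinned cells was 0.39 UMIs in WT, 3.16 UMIs in the first mutant and 0.58 UMIs in the second. Vim was detected in 13.4%, 26.9% and 45.4% of thinned cells (24.2%, 49.4% and 56.1% unthinned), with 3.99, 4.02 and 3.98 UMIs per cell with a UMI. For Vim the number of cells with a UMI differed between pools and the amount in them hardly did.

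Anxa2 was detected in 25.6%, 57.1% and 71.4% of thinned cells, Ahnak in 49.5%, 71.4% and 81.5%, and Crip1 in 88.9%, 97.6% and 98.7%. S100a10 was detected in 98.3%, 94.9% and 94.3%, S100a11 in 88.9%, 82.4% and 83.7%, and Lgals1 in 81.3%, 92.9% and 86.8%. For comparison with genes of other liver cells, Alb, the albumin gene of hepatocytes, was detected in 1.91% of WT thinned cells, and Cd79a of B cells in 0.316% to 1.91%. Lyz2, a myeloid lysozyme gene, was detected in 30.4% of WT, 12.03% of the Jα18-deficient and 91.6% of the CD1d-deficient thinned cells. No cell type that lacks the members was sorted, so the share that free RNA alone would give to the members is unknown, and in CD1d-deficient cells the share of Lgals3, 28.2%, was below that of Lyz2.

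Of the 10 genes, a thinned WT cell held a median of 5, a Jα18-deficient cell 7 and a CD1d-deficient cell 8. At least 8 of the 10 were found together in 10.5%, 40.8% and 53.7% of the cells of these pools.

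**Figure D2:**
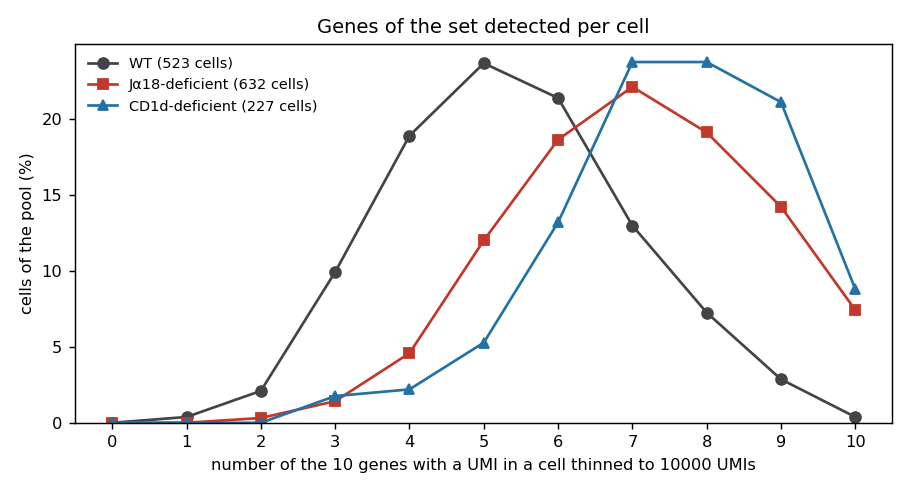
Share of cells of each pool, in %, by the number of the 10 genes that had a UMI after thinning to 10000 UMIs. The WT curve peaks at 5 genes and those of the mutant pools at 7 to 8 genes.

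Across thinned cells of a pool, the 45 pairs of members had a median Spearman correlation of 0.12 in WT, 0.17 in Jα18-deficient and 0.13 in CD1d-deficient cells. The cells of a pool share libraries, and these weak values in sparse counts are a description only. The 15 pairs among S100a4, S100a6, Vim, Ahnak, Crip1 and Anxa2, grouped after their levels were seen, had medians of 0.26, 0.23 and 0.21, and the 30 other pairs 0.08, 0.13 and 0.08. S100a10 was the member least tied to the rest, with medians of 0.05 in each pool.

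Cells were also divided by a detected UMI of Cd8a, which encodes a chain of the CD8 co-receptor, and of S1pr1, which encodes the receptor by which lymphocytes leave tissues. In the WT pool 91 cells held Cd8a without S1pr1, 31 held S1pr1 without Cd8a and 495 held neither. The Jα18-deficient pool had 267, 56 and 345 such cells and the CD1d-deficient pool 214, 18 and 135. The 83 cells with both were described only. Detection follows depth, and the median was 54522 UMIs per Cd8a cell, 57516 per S1pr1 cell and 37325 per cell with neither in WT, 62572, 59990 and 30019 in Jα18-deficient cells and 18877, 8914 and 8799 in CD1d-deficient cells. Counts summed per pool and class were compared with the quasi-likelihood test of edgeR with the pool as a term (n = 3 pools, of different genotypes), and calls needed an adjusted p under 0.05 as well as a ln fold change beyond 0.25 in either direction. The test asks whether the classes differed within pools on average, with a shared difference assumed. Whether that difference was the same in each genotype was not tested.

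In all 3 pools S100a6 was higher in Cd8a cells than in S1pr1 cells. Its levels in Cd8a, S1pr1 and neither cells were 793, 369 and 315 CPM in WT, 1466, 630 and 980 CPM in Jα18-deficient and 1941, 790 and 1559 CPM in CD1d-deficient cells. The Cd8a cells were 2.15-, 2.33- and 2.46-fold above the S1pr1 cells of the same pool, and 2.60-, 2.65- and 4.15-fold without the highest cell of each class, since 49% of the S100a6 UMIs of the 18 CD1d-deficient S1pr1 cells came from 1 cell. The fitted log2 fold change was 1.06 ± 0.23 (SE, n = 3 pools), and after adjustment over 10394 genes it was not called (edgeR adjusted p = 0.22). Classes were set anew after thinning, which left 39, 119 and 109 Cd8a cells, 21, 44 and 16 S1pr1 cells and 462, 463 and 100 cells with neither in the order WT, Jα18-deficient and CD1d-deficient, so depth and class membership changed together. In cells thinned to equal depth S100a6 was called, with a log2 fold change of 1.39 ± 0.21 (edgeR adjusted p = 0.00030).

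S100a4 was at 296, 70.2 and 140 CPM in Cd8a, S1pr1 and neither cells of WT, 497, 431 and 551 CPM of Jα18-deficient and 425, 57.6 and 313 CPM of CD1d-deficient mice. The Cd8a cells were 1.153-fold above the S1pr1 cells in the Jα18-deficient pool, 4.21-fold in WT and 7.38-fold in CD1d-deficient cells. In thinned Jα18-deficient cells the mean was 9.04 UMIs in Cd8a cells, 4.16 UMIs in S1pr1 cells and 3.82 UMIs in cells with neither. The gap between the first 2 classes was thus wider there, where depth and class membership had changed together. The log2 fold change of Cd8a against S1pr1 cells was 1.48 ± 0.44 (SE, n = 3 pools; edgeR adjusted p = 0.42), and in thinned cells 2.16 ± 0.37 (edgeR adjusted p = 0.0019). It was 0.99 without the CD1d-deficient pool, 2.35 when the Jα18-deficient pool was left out and 1.13 without the WT pool.

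Vim was at 143 CPM in Cd8a cells, 26.3 CPM in S1pr1 cells and 24.1 CPM in cells with neither in WT. In Jα18-deficient cells these levels were 149, 156 and 66.8 CPM, and in CD1d-deficient cells 185, 124 and 179 CPM. The Cd8a cells of the 3 pools lay closer to each other than the cells with neither did, with ratios between these classes of 5.93 in WT, 2.23 in Jα18-deficient and 1.03 in CD1d-deficient cells. In thinned cells Vim was detected in 53.8%, 47.9% and 48.6% of the Cd8a cells and in 9.52%, 19.9% and 42.0% of cells with neither, in the order WT, Jα18-deficient and CD1d-deficient. The log2 fold change of Cd8a cells against neither was 1.33 ± 0.56 (SE, n = 3 pools; edgeR adjusted p = 1.0) and was 0.49 without the WT pool. In the S1pr1 cells of CD1d-deficient mice, 61% of the Vim UMIs came from 1 cell.

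Anxa2 was at 205, 78.2 and 102 CPM in Cd8a, S1pr1 and neither cells of WT, 502, 534 and 312 CPM of Jα18-deficient and 642, 919 and 529 CPM of CD1d-deficient mice. The Cd8a cells were above cells with neither in each pool (log2 fold change 0.71 ± 0.32; edgeR adjusted p = 1.0). Crip1 was at 1570, 870 and 908 CPM in WT, 2454, 2436 and 1718 CPM in Jα18-deficient and 2754, 2000 and 2249 CPM in CD1d-deficient cells. It was also above cells with neither in the Cd8a cells of each pool (0.55 ± 0.19; edgeR adjusted p = 1.0). Ahnak was at 216, 115 and 146 CPM in WT, 443, 460 and 445 CPM in Jα18-deficient and 522, 445 and 505 CPM in CD1d-deficient cells, so that its classes differed less than its pools did.

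S100a10 ranged from 1445 to 1486 CPM over the WT classes, 1074 to 1211 CPM over the Jα18-deficient and 904 to 1613 CPM over the CD1d-deficient classes. Its S1pr1 cells were above cells with neither by 0.45 ± 0.18 on the log2 scale (edgeR adjusted p = 0.61). The ratio was 1.78 in the CD1d-deficient pool and 1.03 in the other pools, and 1.22 and 0.94 without the highest cell of each class. S100a11 ranged from 543 to 837 CPM, 481 to 638 CPM and 590 to 731 CPM. Lgals1 ranged from 833 to 970 CPM, 1199 to 1372 CPM and 714 to 1198 CPM.

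Lgals3 had no common order of classes. Its levels in Cd8a, S1pr1 and neither cells were 20.7, 41.7 and 44.1 CPM in WT, 361, 130 and 240 CPM in Jα18-deficient and 39.3, 27.7 and 52.6 CPM in CD1d-deficient cells. The Cd8a cells were lowest in WT and highest in Jα18-deficient cells, and in WT 46% of their Lgals3 UMIs came from 1 cell. In thinned cells classed as Cd8a cells after thinning, Lgals3 was detected in 10.3% of WT (4 of 39 cells, 2.87 to 24.2), 68.9% of the Jα18-deficient (59.8 to 77.1) and 27.5% of the CD1d-deficient cells (19.4 to 36.9). The fitted log2 fold changes were -0.22 ± 0.47 for Cd8a against neither and 0.22 ± 0.49 for Cd8a against S1pr1 (SE, n = 3 pools; edgeR adjusted p = 1.0 and 0.93), and intervals that wide cover both directions.

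**Figure D3:**
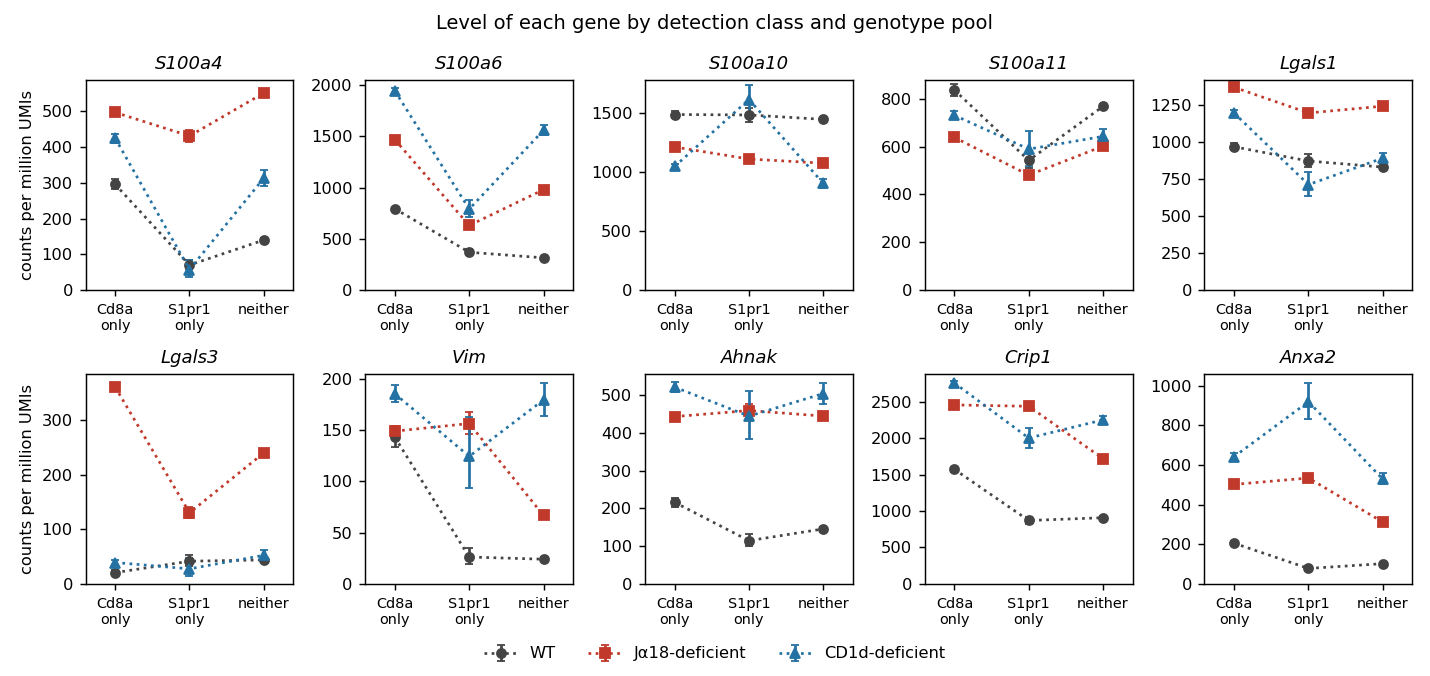
Level of each gene, in CPM from 0, in cells with a UMI of Cd8a only, of S1pr1 only and of neither, per genotype pool, with exact 95% Poisson intervals (counting error only); dotted lines join the classes of a pool. S100a6 is lower in S1pr1 than in Cd8a cells in each pool, and Lgals3 is separate from the other pools in all 3 classes of the Jα18-deficient pool.

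Over all genes, edgeR called 0.0% of 10394 in Cd8a cells against neither (5 with DESeq2), and 0 members. At an unadjusted p under 0.05 it gave 1.47% of genes and 4 members, S100a6, Crip1, Vim and Anxa2, each higher in Cd8a cells, and this number of members was 0 without the WT pool, 0 without the pool term and 2 with DESeq2. In S1pr1 cells against neither it called 0.0% (117 genes with DESeq2), with 8.04% of genes and 2 members, S100a4 (lower) and S100a10 (higher), at an unadjusted p under 0.05. In Cd8a against S1pr1 cells it called 0.0481%, the 5 genes Gzmb, Klra5, Ly6c2, Tyrobp and Xcl1, named after their values were seen, and 0 members. There 8.81% of genes and 2 members, S100a4 and S100a6, had an unadjusted p under 0.05. DESeq2 called 0 members in each contrast. In thinned cells edgeR called 0.282% of 8166 genes in Cd8a cells against neither, with S100a6 among them (log2 fold change 1.07 ± 0.20, adjusted p = 0.011), and 1.22% in Cd8a against S1pr1 cells, with S100a4 and S100a6. The median log2 fold change of the members was 0.41 in Cd8a cells against neither, where 9 of 10 were positive, 0.03 in S1pr1 cells against neither and 0.26 in Cd8a against S1pr1 cells, and that of all genes was -0.0020, -0.20 and 0.21.

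**Figure D4:**
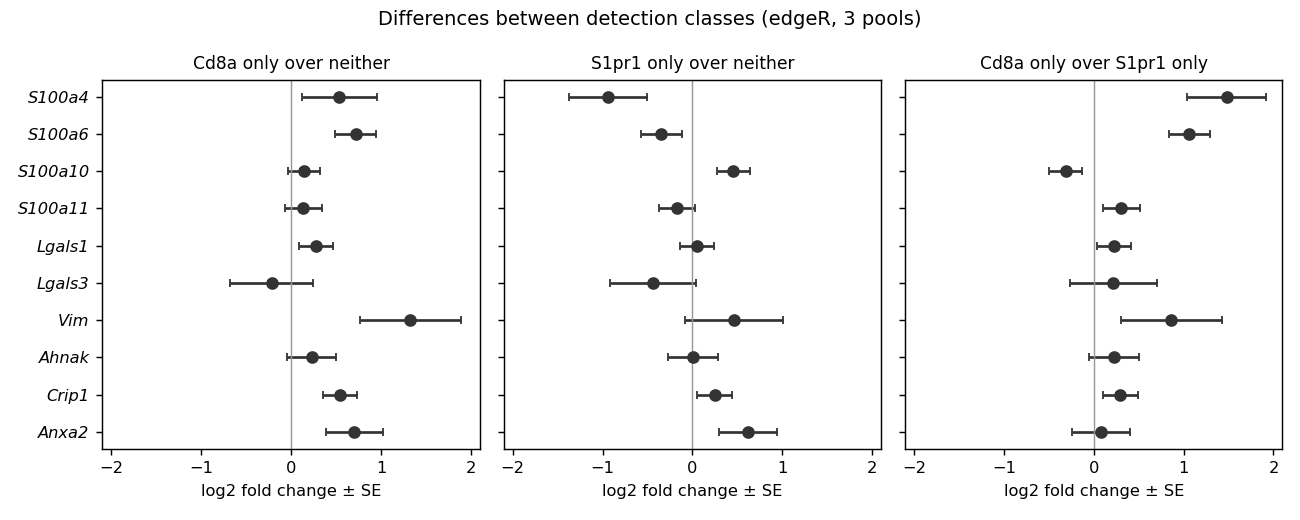
Log2 fold change of each gene between classes of cells, fitted by edgeR on sums per pool and class with the pool as a term (n = 3 pools); bars are standard errors. S100a6 (1.06) and S100a4 (1.48) lie farthest from 0 relative to their errors in Cd8a against S1pr1 cells, and Lgals3 lies within 1 standard error of 0 in all 3 panels.

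The differences between genotypes were repeated within the Cd8a class. There 24.6% of 8910 genes were at least 2-fold above WT in Jα18-deficient cells, as were 3 members, Lgals3 (17.4-fold), Anxa2 (2.45-fold) and Ahnak (2.05-fold). In CD1d-deficient against WT Cd8a cells 19.8% of 7710 genes and 3 members were at least 2-fold higher, Anxa2 (3.13-fold), S100a6 (2.45-fold) and Ahnak (2.41-fold). Vim, by contrast, was 1.04- and 1.30-fold the WT level in Cd8a cells. Among cells with neither gene it was 2.77-fold and 7.44-fold the WT level, and S100a6 was 3.11- and 4.95-fold and S100a4 3.94- and 2.23-fold. Whether the genotypes differed more in one class than in another was not tested. Cells with neither gene were not the same mix in each pool, since the 5 markers of the Cd8a class summed there to 703 CPM in WT, 1472 CPM in the first mutant and 3619 CPM in the second, against 3592 CPM in the WT Cd8a cells, and their part in these values was not tested. In the small S1pr1 class, S100a4 was 6.14-fold the WT level in Jα18-deficient cells and 0.82-fold in CD1d-deficient cells. The latter rests on 25 UMIs in CD1d-deficient and 123 in WT cells, too few to give a direction.

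The myeloid markers moved with the CD1d-deficient pool, so the levels were also read in thinned cells by their myeloid UMIs. Cells with 0 myeloid UMIs numbered 344 in WT, 508 in Jα18-deficient and 9 in CD1d-deficient cells. In them S100a6 had a mean of 3.88 UMIs per WT cell and 11.2 per Jα18-deficient cell, Anxa2 1.08 and 3.34, S100a4 1.145 and 4.86, Crip1 8.69 and 19.1, and Ahnak 1.56 and 4.84. In CD1d-deficient cells with 1 to 9 myeloid UMIs (155 cells) S100a6 was at 16.5 UMIs, and with 10 or more (63 cells) at 24.5. Lgals3 was at 0.46 and 0.97 UMIs and Vim at 1.49 and 2.54 in these cells. The 9 CD1d-deficient cells at 0 held on average 24.4 UMIs of S100a6, 2.11 of Vim and 0 of Lgals3. From 0 to 10 or more myeloid UMIs, S100a4 rose in this pool (2.56, 3.42 and 4.84 UMIs) and Crip1 fell (36.9, 24.97 and 22.1). Anxa2 was highest at 0 (8.67, 4.77 and 5.87), so the members had no common order along these steps. With only 9 CD1d-deficient cells at 0, the part of free or foreign myeloid RNA in the CD1d-deficient levels was not tested.

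The cells that held Lgals3 differed between the pools. Thinned cells were divided into those with 0, 1 or 2, and at least 3 Lgals3 UMIs, which gave 458, 40 and 25 WT cells, 347, 105 and 180 Jα18-deficient cells and 163, 50 and 14 CD1d-deficient cells. In the Jα18-deficient pool the mean of S100a6 was 8.54, 8.06 and 18.3 UMIs along these steps, that of S100a4 3.52, 2.55 and 8.73, and that of Crip1 16.8, 19.8 and 25.2. The Jα18-deficient cells with the most Lgals3 thus also held more of these genes. S100a6 also rose along these steps in WT (3.83, 4.98 and 7.96 UMIs) and in CD1d-deficient cells (18.5, 19.7 and 22.5). S100a4 was at 1.48, 3.73 and 0.68 UMIs in WT and 3.48, 4.08 and 6.21 in CD1d-deficient cells. Crip1 was at 9.70, 12.2 and 9.76 UMIs in WT and 24.9, 24.5 and 22.7 in CD1d-deficient cells. In the Jα18-deficient pool the share of cells with a UMI of Cd8a was 11.2%, 19.0% and 36.7%. The sum of 5 markers of Cd8a cells (Cd8b1, Klra5, Cd244, Gzmb and Tyrobp) was 12.99, 18.1 and 46.2 UMIs there.

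In WT the share with Cd8a was 7.64%, 12.5% and 0 of 25 cells, which allows a share of thinned cells with a Cd8a UMI of up to 12% (3 of 25, counting error only), and the sum of those markers was 10.7, 19.7 and 4.12 UMIs. The myeloid sum along the same steps was 0.94, 3.65 and 2.12 UMIs in WT, 0.38, 0.62 and 0.36 in Jα18-deficient and 6.5, 12.2 and 27.2 in CD1d-deficient cells. Among genes with a UMI in at least 10% of thinned cells, those with the highest Spearman correlation with Lgals3 were Lyz2 (0.22) and Apoe (0.20) in WT, Tyrobp (0.35), Fcer1g (0.33), Cd244 (0.31) and Cd8a (0.31) in Jα18-deficient and H2-Ab1 (0.31), Lyz1 (0.29) and Lyz2 (0.29) in CD1d-deficient cells. This search was added after the data were seen and carries no test.

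**Figure D5:**
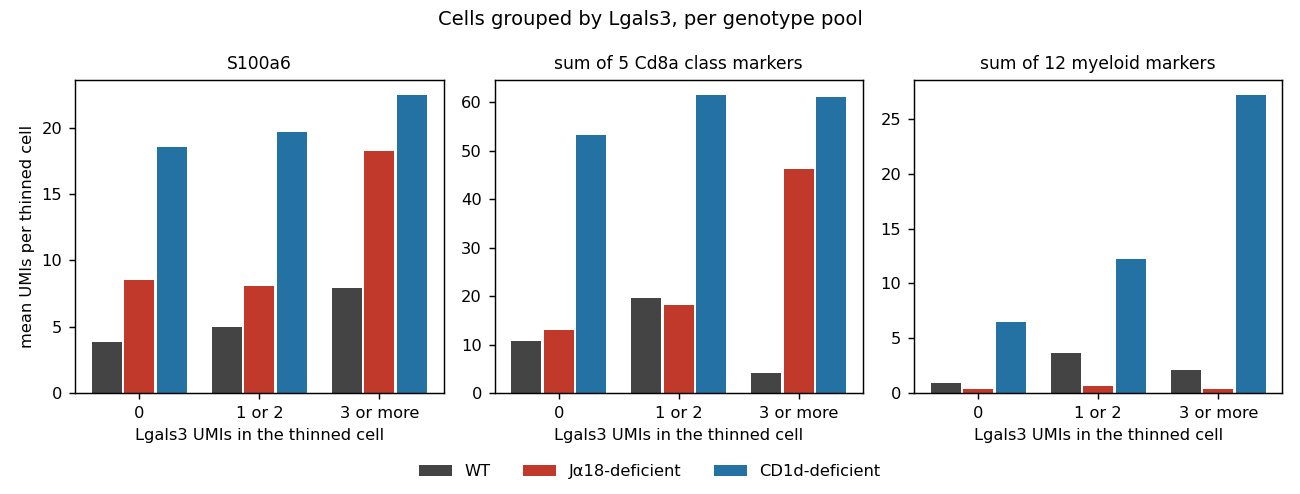
Mean UMIs per thinned cell of S100a6, of 5 summed markers of Cd8a cells and of 12 summed myeloid markers, for cells with 0, 1 or 2, and 3 or more Lgals3 UMIs, per genotype pool. Axes start at 0 and differ between panels; the marker sum of Cd8a cells is 46.2 in the Jα18-deficient cells with the most Lgals3 and 4.12 in such WT cells, and the myeloid sum is 27.2 in such CD1d-deficient cells.

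Over the 9 sums of pool and class, which share 3 pools, the genes with a mean of at least 20 CPM whose log2 level followed Lgals3 most closely, of 5284, were Ndufa2 (Pearson r = 0.94), Rtf1 (0.92), Clptm1 (0.92), Cotl1 (0.91) and Tex261 (0.91). Those closest to the mean of the other 9 members were Itgax (0.97), which encodes the integrin CD11c, Fcer1g (0.95) and Tyrobp (0.94), which encode signalling adaptors of NK receptors, Nkg7 (0.94) and Car2 (0.93). These lists share no gene. They rank 9 points by design and carry no test.

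The wider families were read from whole lists. Among the S100 family, 3 of 8 genes with at least 100 UMIs were at least 2-fold above WT in Jα18-deficient cells, and 3 of 7 in CD1d-deficient cells. The genes other than members were S100a5, with 100 UMIs in the Jα18-deficient pool and 0 in WT (at least 18.8-fold higher, from 3 counts over the WT pool), of which 95% came from 1 cell, and S100a1, 3.92-fold higher in CD1d-deficient cells. Of the galectins 2 of 6 and 0 of 5 were higher, the other one being Lgals7, with 191 UMIs in the Jα18-deficient and 5 in the WT pool. Of the annexins 2 of 7 were higher in Jα18-deficient cells, including Anxa11 (2.57-fold), with Anxa4 at 0.46 times the WT level, and 1 of 7, Anxa2 itself, in CD1d-deficient cells.

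Of the LIM-domain and intermediate filament genes 5 of 7 were higher in Jα18-deficient cells, including Lmna (3.85-fold), the lamin A gene, and Csrp1, and 5 of 6 in CD1d-deficient cells, including Lmna (2.48-fold) and Plec (2.46-fold), which encodes the cross-linker plectin. Vim, Crip1 and Ahnak are in this list. Of 17 actin and membrane cytoskeleton genes, 2 were higher in Jα18-deficient cells, Flna (2.98-fold) and Emp3 (2.18-fold), and 1, Emp3 (2.72-fold), in CD1d-deficient cells. These genes were named after their values were seen. The median log2 ratio of those 17 genes was 0.10 in each mutant pool, near that of all genes. In the class fits edgeR called 0 genes of these 5 lists.

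Lgals3, Anxa2 and Ahnak were among 295 genes, 2.87% of those tested, that were at least 2-fold above WT in the Jα18-deficient pool in all 3 classes, and Lgals3 helped to choose the set by this comparison. The Jα18 segment lies on chromosome 14, as Lgals3 does. Of all tested genes with a position 3.44% lay on that chromosome. So did 5.24% of the 286 genes with a position that were higher in every class. Of the 187 genes lower in every class, 179 had a position, and 8.94% of these lay there. The part of this position in the Lgals3 level was not tested.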

How the data were processed

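UMI libraries of single liver NK1.1+CD3e+ cells were read from 1 count matrix of the series. The deposited values are counts of UMIs per gene and cell without normalization. To make them, the authors trimmed reads, aligned them to mm9, removed duplicates by UMI and counted transcripts per gene; the submitters' processing notes name cutadapt 1.15, TopHat2 2.0.12 and HTSeq 0.10.0. Of 1735 cells, 353 lay outside the stated limits (10000 to 600000 UMIs, over 500 genes) and were kept. No doublets were removed. The members and gene lists were chosen with earlier results of these data known. Cell names carry no library, so each genotype was 1 pool, named from the labels' genotypes. Depth was 34102694 UMIs in WT, 60484252 in Jα18-deficient and 14536585 in CD1d-deficient cells.

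Sums per pool and class of at least 3 cells were tested with edgeR 4.0.16 (quasi-likelihood, TMM, filterByExpr, pool as a term, Benjamini-Hochberg over 10394 genes without Cd8a and S1pr1) in R 4.3.3. The alternatives were DESeq2 1.42.0, upper-quartile scaling, no filter, no pool term, detection at 2 UMIs, cells thinned at random to 10000 UMIs, cells within the stated limits, and leaving out each pool. Pools were compared by CPM without a test, also by mean over cells, thinned, TMM-scaled and within cells with neither gene. The comparisons of pools within the Cd8a class and within the S1pr1 class, and leaving out the highest cell, were added after the data were seen. In counts simulated for Cd8a cells against neither, with 198 of 10394 genes changed 4-fold, edgeR recovered 26.8% with 1 false call and DESeq2 38.4% with 46.

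All 10 members were named, with called genes of the S100, galectin and annexin lists and the 5 genes most like Lgals3 and most like the mean of the other members; other genes were named after their values were seen. Intervals were computed with scipy 1.17.1 in Python 3.11.15. Gene positions came from the gencode vM1 annotation of NCBIM37 (mm9), which may differ from the authors' annotation. Sequences came from RefSeq promoters of GRCm38.p6. T cell receptor genes were not used here.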

Additional observations from a re-analysis of the deposited data

Results flagged for a closer look

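Lgals3 was flagged because its difference between classes ran in opposite directions in different pools. Against cells with neither gene detected, the level in Cd8a cells was 0.4705 times as high in the WT pool and 0.7475 times in the CD1d-deficient pool, and 1.5025 times in the Jα18-deficient pool. Against S1pr1 cells it was 0.4978 times as high in the WT pool, 2.7662 times in the Jα18-deficient pool and 1.4213 times in the CD1d-deficient pool. The last ratio rests on 12 UMIs in S1pr1 cells, with an interval of 0.80 to 2.52 that covers both directions. In thinned CD1d-deficient cells the mean was 0.61 UMIs in Cd8a cells and 0.54 in cells with neither. The lower level in Cd8a cells of that pool was thus not kept at equal depth. With 1 pool per genotype the difference between pools was not tested. In the WT Cd8a cells 46% of the Lgals3 UMIs came from 1 cell.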

How the results depend on the processing

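No paired analysis was possible because the cell names carry no library number. In Cd8a cells against neither, edgeR called 0 genes, DESeq2 called 5, no filter on low counts gave 7 and thinned cells 23. In S1pr1 cells against neither, 0 genes became 117 with DESeq2, 6 without a filter, 3 in thinned cells and 0 to 2 on leaving out each pool. In Cd8a against S1pr1 cells, 5 genes became 214 with DESeq2, 40 without a filter, 0 without the pool term, 100 in thinned cells, 14 with detection at 2 UMIs and 0 to 10 on leaving out each pool. S100a4 and S100a6 were called there without a filter and in thinned cells, and S100a6 with detection at 2 UMIs. The log2 fold change of Lgals3 turned in Cd8a cells against neither without the pool term (0.27), in thinned cells (0.62) and without the WT pool (leaving out each pool gave -0.6969 to 0.0668), in S1pr1 cells against neither in thinned cells (0.22), and in Cd8a against S1pr1 cells without the Jα18-deficient pool (leaving out each pool gave -0.34 to 0.8281). Within the Cd8a class, members at least 2-fold higher fell from 7 to 3 (Jα18-deficient against WT) and from 6 to 3 (CD1d-deficient against WT). The share of all genes rose there, to 24.6% of 8910 and 19.8% of 7710 genes. Between the mutant pools, 2 members in place of 1 differed 2-fold within cells with neither gene, and also within the S1pr1 class. Among cells with neither gene, 12.3% of 8257 genes were at least 2-fold higher in the CD1d-deficient pool and 23.3% lower. In the S1pr1 class these shares were 15.05% and 42.5% of 5091 genes. The log2 ratio of S100a4 in CD1d-deficient against WT cells turned to -0.29 within the S1pr1 class, from 25 UMIs in CD1d-deficient and 123 in WT cells. The causes were not tested. The self-test at this size recovered few 4-fold changes, and DESeq2 made 46 false calls, so a member that was not called is not shown to be equal between classes.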
